A study of Mus musculus with 46 samples.

Results

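The unfolded protein response and endoplasmic reticulum (ER) chaperone module comprised 34 genes out of the 31854 in the RNA count table. Members were chosen by name, as the sensors, transcription factors and targets of the response, and were divided among the ATF6 arm (11 genes), the IRE1-XBP1 arm (12 genes), the PERK-ATF4 arm (6 genes) and a remainder of folding and quality control genes assigned to no arm (5 genes). Their RNA was measured by translating ribosome affinity purification (TRAP), in which ribosome-bound RNA is pulled down through a GFP-tagged L10a ribosomal subunit that the NuTRAP allele expresses wherever Cre is present. AgRP-IRES-Cre or POMC-IRES-Cre supplied the Cre in male NuTRAP mice. The AgRP mice were 6 to 11 weeks old and 4 arcuate nuclei were pooled for each AgRP library, while the labels give neither age nor pooling for the POMC libraries. Mice had been fed ad libitum, fasted overnight, or fasted overnight and then given leptin, with PBS as the vehicle of the other states. The AgRP line gave 3 fed, 4 fasted and 4 leptin libraries, and the POMC line gave 2 libraries of each state. Chromatin accessibility was taken from ATAC-seq of sorted GFP-positive AgRP nuclei in the 3 states, and of AgRP-positive and AgRP-negative nuclei of fed, untreated mice, with 2 libraries for each group. A CUT&RUN peak list for the transcription factor IRF3 came from 1 library of an IRF3-2D overexpression model. The ATF6, IRE1-XBP1 and PERK-ATF4 arms were compared across feeding states and between the neuron types.

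Proteins that enter the secretory pathway fold in the ER with the help of chaperones such as BiP (Hspa5) and of disulphide isomerases, and unfolded protein there is sensed by ATF6, IRE1 (Ern1) and PERK (Eif2ak3). ATF6 is cut in the Golgi to release a transcription factor for chaperone genes. IRE1 splices the Xbp1 mRNA so that it encodes an active factor for folding and degradation genes. PERK phosphorylates eIF2alpha, which lowers translation in general while favouring that of the transcription factor gene Atf4. AgRP neurons of the arcuate nucleus drive feeding and secrete neuropeptides, POMC neurons secrete peptides that restrain feeding, and both are targets of the adipocyte hormone leptin.

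Because ATF6, XBP1 and ATF4 act at known short elements, the promoters of the members were searched for them in RefSeq sequence (GRCm38.p6), from 250 bases before to 50 bases after each start, on both strands. Promoters were found for 30 of 34 members, and those of Manf, Atf6, Hyou1 and Derl1 were not analysed here. The ER stress element (ERSE) was searched as CCAAT and CCACG separated by 9 bases. It was present in 9 of 30 members (30%), in 37 of 27025 gene symbols (0.137%) and in 39 of all 32851 promoters of the same length (0.119%). By arm it was present in 4 of 8 ATF6 members, 4 of 11 IRE1-XBP1 members, 0 of 6 PERK-ATF4 members and 1 of 5 members of no arm. ERSE-II (ATTGG, 1 base, CCACG) was found in 2 members (6.67%, against 0.0365% of all promoters). The UPRE core TGACGTG was found in 1 member (3.33%, against 2.01%), and the ATF4 target letters TGATGCAA (CARE) in 2 members (6.67%, against 0.895%). Members are counted as genes, and the shares of all promoters as promoters. Because members were chosen as known targets of the response, these shares carry no test. Matches of different elements did not overlap in any printed window, and a match describes the letters and not factor binding. The windows below were chosen because they hold the matches in the genes most discussed here, each printed 5′ to 3′ on the strand of its gene, with the matched letters in capitals and the spacer left in lower case. A match that reads CGTGG before ATTGG is an ERSE on the opposite strand, and TTGCATCA is the CARE on the opposite strand. The windows are Hspa5 (chr2:34771840-34772089, plus strand), Pdia6 (chr12:17266461-17266539, plus), Hsp90b1 (chr10:86705503-86705686, minus), Calr (chr8:84847045-84847123, minus), Dnajc3 (chr14:118937797-118937875, plus), Herpud1 (chr8:94386287-94386417, plus), Dnajb11 (chr16:22857822-22857862, plus) and Chac1 (chr2:119351019-119351086, plus).
Hspa5: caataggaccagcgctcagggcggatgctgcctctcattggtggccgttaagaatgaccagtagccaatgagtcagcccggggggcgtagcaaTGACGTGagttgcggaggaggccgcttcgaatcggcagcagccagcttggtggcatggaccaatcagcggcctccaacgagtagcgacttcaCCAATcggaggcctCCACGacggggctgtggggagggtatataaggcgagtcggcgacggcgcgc
Pdia6: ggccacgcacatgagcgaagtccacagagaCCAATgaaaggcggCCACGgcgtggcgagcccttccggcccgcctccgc
Hsp90b1: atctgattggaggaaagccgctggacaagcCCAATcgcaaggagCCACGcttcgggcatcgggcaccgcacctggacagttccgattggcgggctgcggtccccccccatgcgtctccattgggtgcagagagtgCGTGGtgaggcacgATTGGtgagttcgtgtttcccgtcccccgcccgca
Calr: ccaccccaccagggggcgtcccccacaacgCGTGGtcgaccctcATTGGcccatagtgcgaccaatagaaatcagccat
Dnajc3: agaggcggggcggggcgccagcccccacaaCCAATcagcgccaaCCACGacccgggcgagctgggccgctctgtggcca
Herpud1: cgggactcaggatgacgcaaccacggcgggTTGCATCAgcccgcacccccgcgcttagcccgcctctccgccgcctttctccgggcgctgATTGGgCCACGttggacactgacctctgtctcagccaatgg
Dnajb11: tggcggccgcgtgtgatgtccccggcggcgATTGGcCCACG
Chac1: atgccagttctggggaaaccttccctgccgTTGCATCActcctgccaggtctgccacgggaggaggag
The Hspa5 window carried a UPRE core centred at -154 and an ERSE at -56 from the start, and Hsp90b1 carried a pair of ERSEs in opposite orientations. Herpud1 held an ERSE-II at -47 together with a CARE at -108. Further single ERSEs were found in Canx, Derl3, Creld2 and Syvn1.

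**Figure D1:**
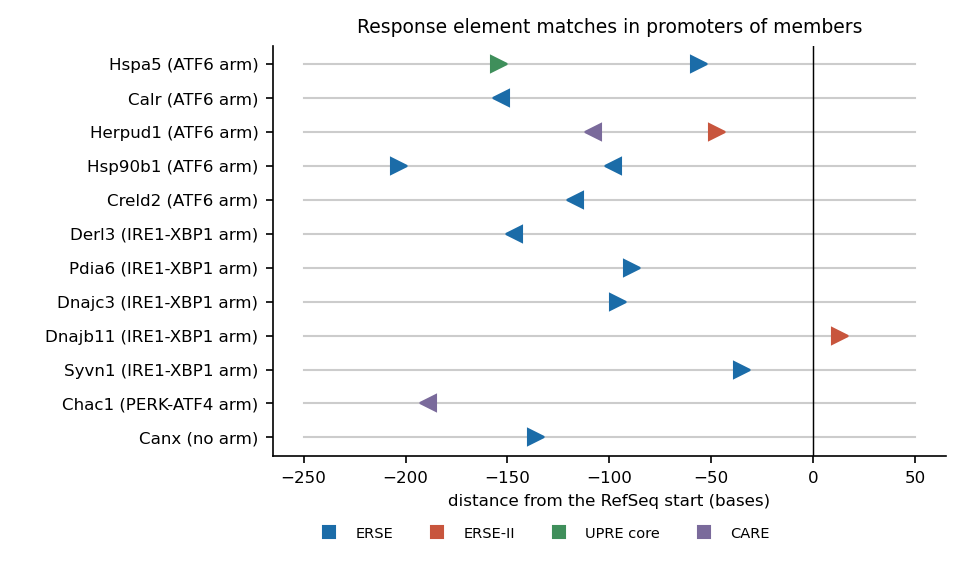
Positions of the 4 searched elements in the members that held at least 1, in bases from the RefSeq start, from 250 bases before it to 50 after, with arrows giving the strand of each match. ERSEs lie between -203 and -35, and no ERSE is drawn for a PERK-ATF4 member.

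Total counts were 25581041 to 54511107 in the 11 AgRP libraries and 30704075 to 53217053 in the 6 POMC libraries. Summed CPM (counts scaled to the TMM-adjusted library size) of 6 AgRP neuron markers was 1656 to 2339 in fed, 2958 to 6450 in fasted and 2153 to 6387 in leptin AgRP libraries, and 110.4 to 201.7 in POMC libraries. The POMC neuron markers summed to 1556 to 2923 CPM in POMC libraries and to 56.39 to 97.8 CPM in AgRP libraries. Astrocyte markers were present in each AgRP state (6 genes, summed CPM 564.9 to 896.5 fed, 471.1 to 955 fasted, 488 to 971.2 leptin), none of them at 0. Without a replicate block no gene of the non-neuronal marker lists was called between fasted and fed. With the block, the astrocyte marker Aqp4 (log2 fold change -0.88), the microglia marker Cx3cr1 (-0.57) and the oligodendrocyte marker Mog (-0.56) were called lower, where 2.54% of all genes were. Called higher were 5 of the 6 AgRP neuron markers, where 4.4% of all genes were. The unblocked medians were -0.24, -0.59 and -0.23 over the tested astrocyte, microglia and oligodendrocyte markers. They were 0.12 over the endothelial and 0.14 over the tanycyte and ependymal markers, and the 1 tested pars tuberalis marker had 0.01. The part of glial RNA in the member results was not tested. The replicate 4 AgRP libraries and the replicate 2 POMC libraries stood apart from the rest. Slc1a2, an astrocyte glutamate transporter, took 1.93% to 2.355% of counts in the replicate 4 AgRP libraries and 0.24% to 0.433% in the other AgRP libraries, and Hspa5, Hyou1, Calr and Pdia6 were at their lowest of each fasted and leptin group in replicate 4. The share was 2.14% to 2.42% in the replicate 2 POMC libraries and 0.54% to 0.64% in the others. The counts for AgRP are given with and without the replicate 4 libraries. Leaving out the POMC ones would leave 1 library a state. In bulk RNA, fewer cells of a type and less RNA per cell cannot be told apart, and p-values measure the spread between these pools.

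In fed AgRP libraries the most abundant members per length were folding factors. On the RPKM scale, Hspa5, the ER Hsp70 chaperone, stood at 195.5 ± 17.42 and Canx, the membrane lectin chaperone calnexin, at 182.8 ± 25.75 (mean ± SD, n = 3), and these levels overlapped. The disulphide isomerase Pdia3 (108.1 ± 15) and the lectin chaperone Calr (104.6 ± 4.733) followed, also overlapping, and then the ER Hsp90 gene Hsp90b1 (88.95 ± 10.46) and the ER Hsp110 gene Hyou1 (81.12 ± 5.229), whose libraries overlapped too. Signalling members were lower: Xbp1 stood at 60.34 RPKM and Atf4 at 28.46, whereas the sensors Ern1, Atf6 and Eif2ak3 stood at 7.778, 5.56 and 5.284, the last pair overlapping. Derl3, a paralogue of the ER degradation channel subunits, and Trib3, a pseudokinase target of ATF4, lay under 1 CPM in every library and were the 2 members not tested. Between the lines, 0 of 32 tested members differed in the fed state (edgeR and DESeq2 alike, 1 higher in AgRP at an unadjusted p under 0.05, as were 6.76% of all genes), where 1.7% of 13435 genes were higher and 1.51% lower in AgRP. Line, Cre driver and preparation cannot be told apart in that comparison. The member log2 fold changes ran from -0.24 (Eif2ak3) to 0.64 (Ddit3, FDR 0.404), with a median of 0.03 against -0.01 over all genes. A limit of the counted Ddit3 length is given below.

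The chaperone genes Hspa5 and Hyou1, the BiP-binding factor gene Manf, the disulphide isomerase genes Pdia6, P4hb and Pdia3 and the degradation gene Edem2 were higher in AgRP libraries after an overnight fast, as were the sensor gene Ern1 and the transcription factor gene Atf4. Of 32 tested members, 9 were called higher in fasted than fed libraries (edgeR quasi-likelihood, Benjamini-Hochberg FDR under 0.05 and log2 fold change over 0.5), where 2.82% of 13401 genes were, and 0 were called lower, where 1.07% were. At an unadjusted p under 0.05, 21 members were higher (12.4% of all genes) and 1 lower (6.92%), and DESeq2 called 11 higher (3.33%) and 0 lower. The log2 fold change was positive in 28 of 32 members and in 7112 of 13401 genes, with a median of 0.44 against 0.02 over all genes. The libraries of the 2 states did not overlap for 20 members that were higher in fasting and for 1 that was lower, against 9.8% and 7.51% of all genes. With the replicate number as a block, which the same-numbered libraries warranted, 14 members were called higher (4.4% of all genes), the additional calls being Calr, Pdia4, Sdf2l1, Dnajb9 and Ppp1r15a. Without the replicate 4 libraries of the 3 states, 11 were called higher (404 of 13419 genes), Calr and Pdia4 being added.

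**Figure D2:**
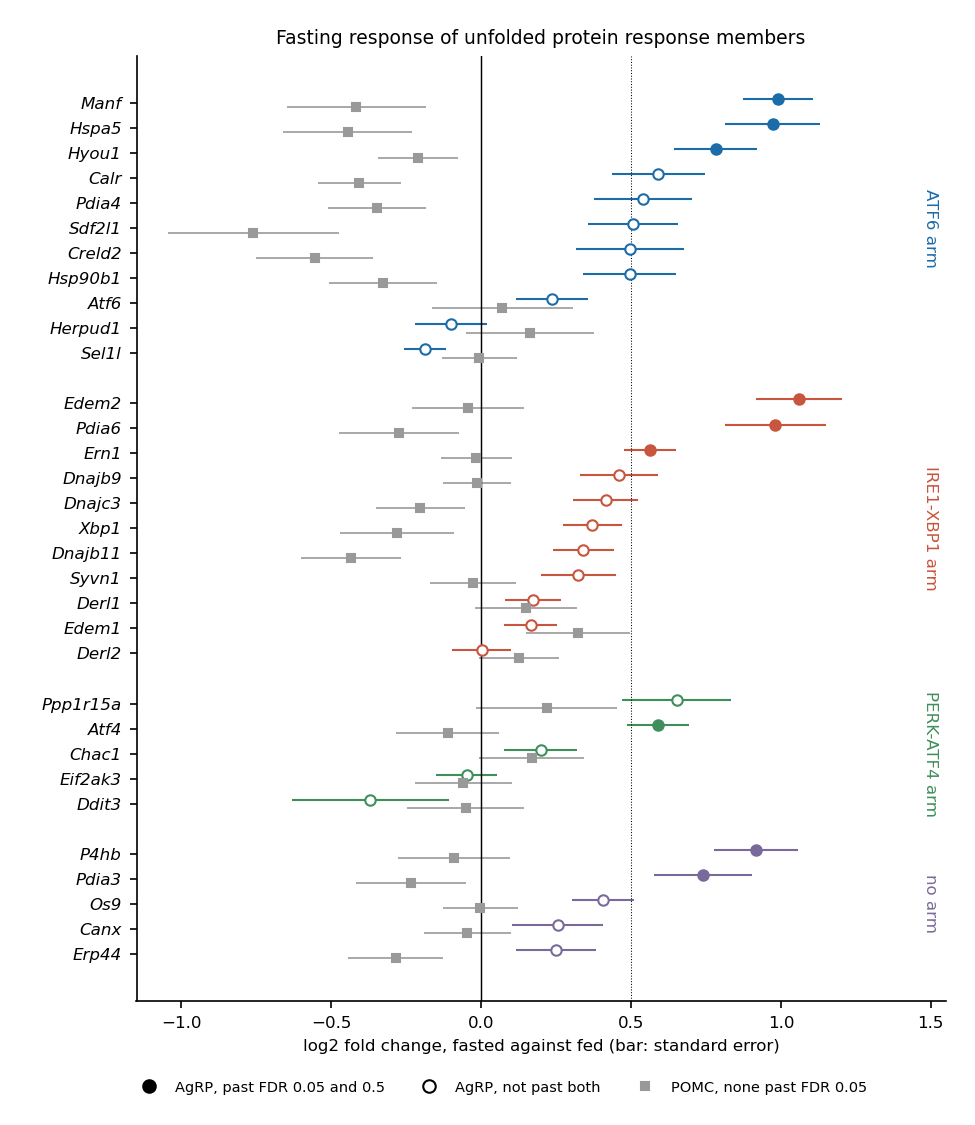
Log2 fold change of fasted against fed libraries for each tested member, with bars of 1 SE, ordered by arm. AgRP circles are filled where the gene was called, POMC values are grey squares, and the dotted line marks 0.5. The 9 filled circles lie between 0.56 and 1.06, while no POMC square was called.

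Within the ATF6 arm, Hspa5 had 485.7, 564 and 484.5 CPM in fed libraries, 975, 988.4, 1200 and 828.2 CPM in fasted libraries. The lowest fasted library lay above every fed library, and the log2 fold change was 0.97 (FDR 0.00541, SE 0.158). Hspa5 (chr2:34771970-34777547, plus strand, mm10) is the BiP gene whose promoter is printed above. Manf (chr9:106838312-106891979, minus strand), a secreted ER-resident factor that binds BiP, had 56.51, 62.29 and 55 CPM fed and 117.8, 97.29, 126.8 and 115.6 CPM fasted. Fed and fasted libraries were well apart, with a log2 fold change of 0.99 (FDR 0.00144, SE 0.117). In GENCODE the antisense transcript 4930524O07Rik overlaps Manf exons, and unstranded reads there could come from either gene. The counting annotation was altered by the authors to reduce such overlaps, so their share of the counted reads is unknown. Hyou1, the exchange factor of BiP, had 376.2, 417.9 and 373 CPM fed and 660.7, 650.4, 789.4 and 560.7 CPM fasted. Its groups did not overlap either, with a log2 fold change of 0.78 (FDR 0.00829, SE 0.138).

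Other ATF6 members had smaller or less precise differences. Calr had 196.6, 213.7 and 199.4 CPM fed and 320.6, 301.3, 362.8 and 234.5 CPM fasted. Every fasted value exceeded the fed ones, the replicate 4 library by the least, and the log2 fold change of 0.59 (SE 0.156) had an FDR of 0.0538. It passed once the replicate 4 libraries were left out. Pdia4, a disulphide isomerase, Sdf2l1, a BiP cofactor, Creld2, an ER-resident isomerase-like protein, and Hsp90b1 had log2 fold changes of 0.54, 0.51, 0.50 and 0.50 and were not called, and Hsp90b1 exons overlap the antisense gene 1810014B01Rik in GENCODE. The sensor gene Atf6 itself had 55.05, 46.81 and 55.73 CPM fed and 62.87, 54.75, 59.13 and 68.91 CPM fasted. These ranges overlapped at their edge (log2 fold change 0.24, SE 0.121, FDR 0.325). Members of ER-associated degradation in this arm behaved otherwise: Sel1l, the adaptor of the Hrd1 ubiquitin ligase, had 294.4, 288.6 and 283.7 CPM fed and 258.4, 250.4, 256.7 and 242.7 CPM fasted. All fasted values lay under the fed ones, but the log2 fold change of -0.19 (FDR 0.162, SE 0.0695) did not pass the test. Herpud1, another Hrd1 complex component, had 80.15, 94.45 and 78.72 CPM fed and 76.79, 91.3, 83.93 and 61.1 CPM fasted. These ranges overlapped, and the log2 fold change was -0.10 (FDR 0.73).

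In the IRE1-XBP1 arm, the sensor gene was among those called. Ern1 (chr11:106394650-106487852, minus strand), which encodes IRE1alpha, had 36.47, 36.92 and 33.03 CPM fed and 54.32, 46.45, 56.23 and 51.2 CPM fasted. The groups did not overlap, and the log2 fold change was 0.56 (FDR 0.00414, SE 0.0864). It fell to 0.497, just under the fold minimum, without fed replicate 4. Xbp1, the target of the IRE1 RNase, had 125.5, 154.3 and 127 CPM fed and 175.9, 166.2, 188 and 166.8 CPM fasted. The groups were again apart, but with a log2 fold change of 0.37 (FDR 0.0554, SE 0.0989) Xbp1 was not called, and gene counts do not separate spliced from unspliced Xbp1.

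The largest difference of the module was that of Edem2, a mannosidase-like protein that commits misfolded glycoproteins to degradation. Edem2 (chr2:155701677-155729475, minus strand) had 17.29, 19.99 and 16.41 CPM fed and 43.08, 32.48, 41.65 and 31.17 CPM fasted. Fasted libraries were all above the fed ones, with a log2 fold change of 1.06 (FDR 0.00235, SE 0.144). Pdia6, an isomerase that also acts on the luminal side of IRE1 (chr12:17266545-17284770, plus strand), had 136, 151.7 and 113.6 CPM fed and 288.8, 245.8, 307.9 and 208.4 CPM fasted. The groups did not overlap (log2 fold change 0.98, SE 0.168, FDR 0.00706). The BiP co-chaperone genes Dnajb9, Dnajc3 and Dnajb11 had log2 fold changes of 0.46, 0.42 and 0.34, with FDR 0.0674 and 0.0502 for the former pair, and were not called. The degradation genes Syvn1, Derl1, Edem1 and Derl2 had log2 fold changes of 0.32, 0.17, 0.17 and 0.00, none of them called.

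Members of the PERK-ATF4 arm had differences of both signs. Atf4 (chr15:80255184-80257541, plus strand), the transcription factor of the integrated stress response, had 46.99, 52.6 and 48.05 CPM fed and 73.62, 76.58, 78.38 and 66.06 CPM fasted. The groups did not overlap, and the log2 fold change was 0.59 (FDR 0.0082, SE 0.104), with an FDR of 0.0506 when fed replicate 1 was left out. The sensor gene Eif2ak3 had 29.26, 27.61 and 26.7 CPM fed and 28.61, 29.67, 27.54 and 21.28 CPM fasted, with a log2 fold change of -0.05 (FDR 0.87, SE 0.101). Its fed range lay within the fasted range, and its exons overlap the antisense gene Gm43292 in GENCODE. Ddit3 (CHOP), a target of ATF4 associated with cell death under prolonged stress, had 22.91, 14.27 and 11.72 CPM fed and 15.62, 12.02, 13.72 and 8.852 CPM fasted. The groups overlapped, with a log2 fold change of -0.37 (FDR 0.499, SE 0.261). In GENCODE, Ddit3 exons overlap the antisense gene Mars and hold 890 bases, against a counted length of 4186 bases. Counted Ddit3 reads may therefore come partly from outside those exons, which was not tested. Ppp1r15a (GADD34), which directs the phosphatase that reverses PERK signalling, had 10.03, 10.77 and 6.9 CPM fed and 14.98, 11.21, 17.28 and 14.34 CPM fasted. The groups were separate, but the log2 fold change of 0.65 (SE 0.183) had an FDR of 0.0661. Chac1, a glutathione-degrading ATF4 target whose CARE is printed above, had a log2 fold change of 0.20 and was not called.

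Among members assigned to no arm, P4hb, the catalytic disulphide isomerase, had 165.5, 181.5 and 148.2 CPM fed and 344.2, 289.5, 352.4 and 254.8 CPM fasted. Fasted libraries were all higher (log2 fold change 0.92, SE 0.14, FDR 0.00414). Pdia3, the isomerase that works with calnexin and calreticulin, had 266.5, 331.3 and 259.3 CPM fed and 467.1, 476.5, 568.7 and 385.7 CPM fasted. These groups did not overlap (log2 fold change 0.74, SE 0.163, FDR 0.0249), but the Pdia3 call was lost without fed replicate 1 or 4 or without fasted replicate 1, 2 or 3 (FDR 0.0555 to 0.124). The lectin Os9, which delivers glycoproteins to Hrd1, passed the FDR alone (0.0458) with a log2 fold change of 0.41, and Canx and Erp44, an isomerase of the early secretory pathway, had log2 fold changes of 0.26 and 0.25 and were not called.

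**Figure D3:**
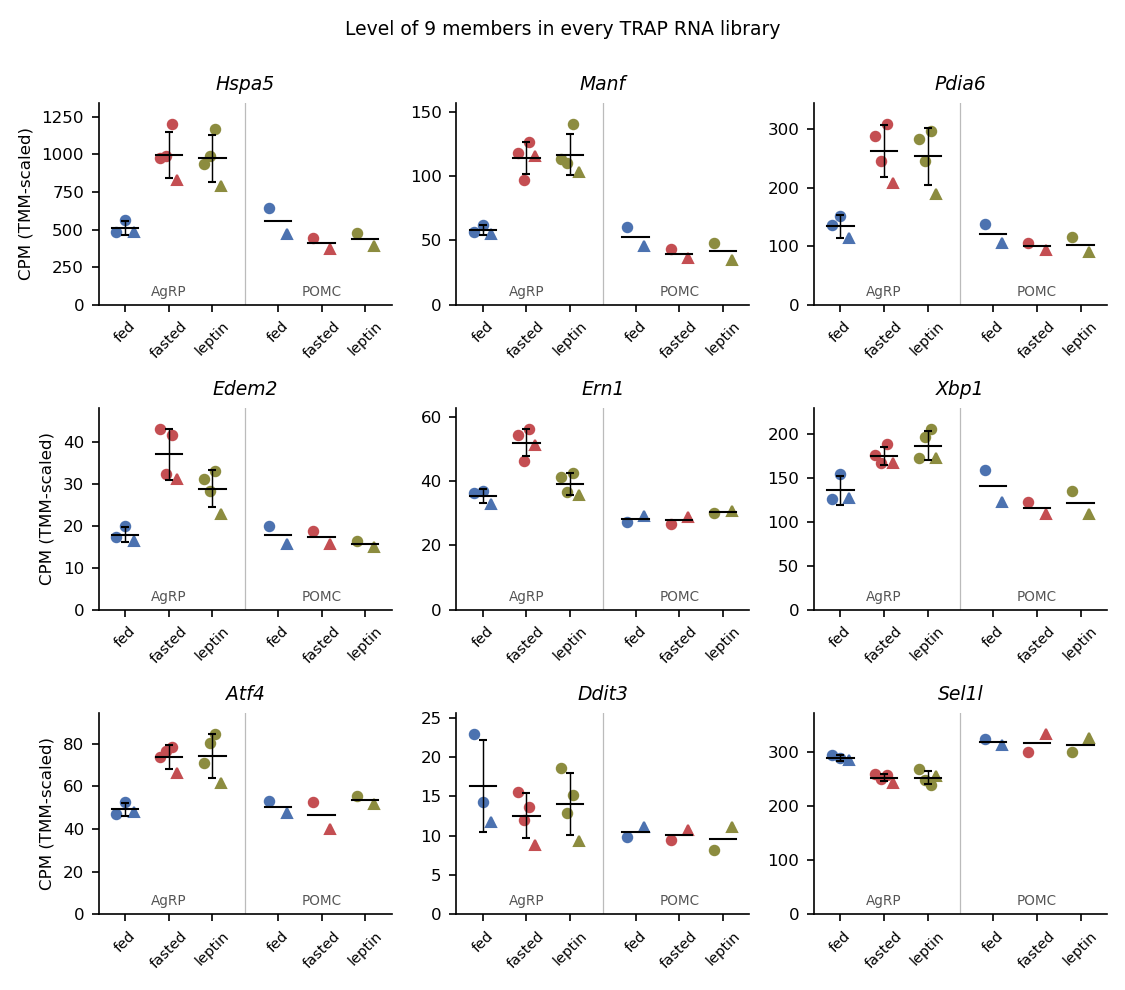
TMM-scaled CPM of 9 members in every AgRP and POMC library by state, with a bar at the mean and, for AgRP groups, a whisker of 1 SD. Triangles are the replicate 4 AgRP and replicate 2 POMC libraries. Hspa5, Manf, Pdia6, Edem2 and Atf4 are higher in all fasted and leptin AgRP libraries than in all fed ones, and Ern1 is higher in the fasted AgRP libraries than in any other library.

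The arms differed in their medians, while without the block the ATF6 and IRE1-XBP1 arms had the same count of calls. Over all 13401 genes tested, 7112 were positive, 2.82% were called higher and 4.4% were called higher with the block. In the ATF6 arm 9 of 11 tested members were positive, 3 called (6 with the block), and the median log2 fold change was 0.51 (range -0.19 to 0.99). In the IRE1-XBP1 arm 11 of 11 were positive, 3 called (4 with the block), with a median of 0.37 (0.00 to 1.06). In the PERK-ATF4 arm 3 of 5 were positive, 1 called (2 with the block), with a median of 0.20 (-0.37 to 0.65). Without the 7 members that ATF6 and XBP1 are both known to regulate, the ATF6 and IRE1-XBP1 medians were 0.56 and 0.37. Per library, the median ATF6 member stood at -0.08 to 0.10 on the log2 scale in the fed libraries, relative to their mean, and at 0.58, 0.45, 0.69 and 0.23 in the fasted ones. The replicate 4 library gave the lowest fasted value, still above the fed range. The PERK-ATF4 median ran from -0.06 to 0.10 in fed and from -0.03 to 0.38 in fasted libraries, and these ranges overlapped. The differences between arms were described and not tested, and arm sizes of 5 to 11 genes limit them.

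**Figure D4:**
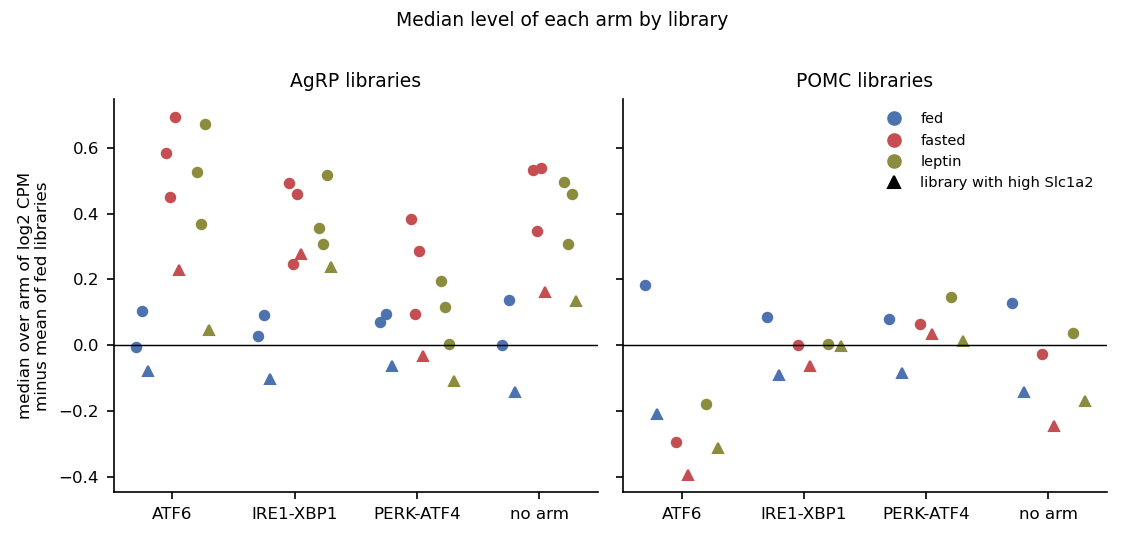
Median over the tested members of each arm of the log2 CPM minus the mean of the fed libraries of the same line, for every AgRP and POMC library by state, with triangles for the libraries rich in Slc1a2. AgRP fasted values of the ATF6 arm (0.228 to 0.693) lie above the fed values (-0.0779 to 0.103), while the POMC fasted values (-0.392 and -0.293) lie below the fed ones.

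After leptin Hspa5, Manf and Hyou1 remained above their fed levels in every AgRP library. Against fasted libraries, which the fasting comparison also uses, 0 members were called higher (1.19% of all genes) and 0 lower (0.634%) by edgeR, with 0 and 0 by DESeq2 and 0 and 2 at an unadjusted p under 0.05, where 4.4% of all genes were lower. The member median was -0.00 on the log2 scale against -0.01 over all genes. Hspa5 had 939, 992.4, 1172 and 790.3 CPM in leptin libraries, and Manf 113.6, 110.4, 140.3 and 103.1 CPM. Both spans overlapped those of the fasted libraries almost fully. Atf4 had 71.09, 80.27, 84.35 and 61.3 CPM with leptin, also overlapping.

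The largest difference between leptin and fasted libraries was that of Ern1. It had 41.26, 36.75, 42.74 and 35.88 CPM in leptin libraries, below all 4 fasted libraries and overlapping the fed ones. The log2 fold change against fasted was -0.41 (SE 0.0791), with an FDR of 0.0197 that passed alone but not with the fold minimum. By FDR alone, 1 member and 0.866% of all genes were lower. The Ern1 FDR was 0.0192 to 0.092 when single libraries were left out, 0.0558 without the replicate 4 libraries and 0.333 with library size alone as scaling. Its log2 fold change against fed was 0.15 (FDR 0.337, SE 0.0857). Edem2 had 31.15, 28.39, 33.22 and 22.85 CPM with leptin, overlapping the fasted range at the edge, with a log2 fold change of -0.36 (FDR 0.314, SE 0.129). The remaining members ranged from -0.21 (Chac1) to 0.16 (Ddit3) on the log2 scale.

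Compared with fed libraries, which the fasting comparison also uses, 11 members were higher after leptin (3.73% of all genes) and 0 lower (1.75%). DESeq2 called 11 higher (4.15% of all genes) and 0 lower, and 1 was lower at an unadjusted p under 0.05 (9.25%). Those higher were Manf (log2 fold change 1.02), Hspa5 (0.94), Pdia6 (0.93), P4hb (0.89), Ppp1r15a (0.78), Hyou1 (0.72), Edem2 (0.70), Pdia3 (0.70), Atf4 (0.60), Calr (0.59) and Dnajb9 (0.55), with FDR from 0.000894 to 0.0415. The count was 5 without fed replicate 1 or fed replicate 4, 7 without leptin replicate 3 and 3 with library size alone. Over all genes 500 were higher in the main fit, and 312, 268, 325 and 194 in those fits, in that order. Xbp1 passed the FDR alone, with a log2 fold change of 0.47 (FDR 0.0164). Its leptin values of 172.7, 196.1, 205 and 172.6 CPM all exceeded the fed ones. The arm medians were 0.42 (ATF6), 0.35 (IRE1-XBP1) and -0.01 (PERK-ATF4), against 0.01 over all genes. Called higher were 4 of 11 tested ATF6, 3 of 11 IRE1-XBP1 and 2 of 5 PERK-ATF4 members (3.73% of all genes). The PERK-ATF4 calls were Atf4 and Ppp1r15a. Per library, the ATF6 median in leptin libraries was 0.53, 0.37, 0.67 and 0.05 relative to fed. The replicate 4 value lay within the fed range and the other values above it.

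The same genes in POMC neurons gave no call, and all but 2 of the 11 tested ATF6 members had a negative log2 fold change after fasting. In the POMC libraries 0 members were called higher or lower in fasted against fed (0.0% and 0.0% of 13412 genes), in leptin against fasted (0.0% and 0.0%) or in leptin against fed (0.0% and 0.0%). Without the block edgeR called no gene at all (135 higher and 147 lower in fasted against fed at an unadjusted p under 0.05), and DESeq2 called 0 members too. With the replicate block edgeR called 0 members and, over all genes, 0 higher and 3 lower in fasted against fed, 7 and 1 in leptin against fasted, and 26 and 18 in leptin against fed. For fasted against fed, 0 members were higher and 4 lower at an unadjusted p under 0.05, where 1.1% of all genes were lower. Those were Sdf2l1, Creld2, Dnajb11 and Calr, with log2 fold changes of -0.76, -0.56, -0.43 and -0.41, each with an FDR of 1. For leptin against fasted 0 and 0 had such a p, and for leptin against fed 0 and 1 (0.947% of genes lower).

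In the POMC libraries Hspa5 had 641.4 and 473.7 CPM fed, 443.4 and 373.7 fasted, and 476.2 and 393.8 with leptin. Both fasted values lay under both fed values, with a log2 fold change of -0.45 (FDR 1, SE 0.214). Calr had 221.1 and 185.7 CPM fed and 159 and 147.3 fasted, and Sdf2l1 had 10.09 and 7.236 fed and 3.997 and 6.242 fasted. These too were separate and lower in fasting. Non-overlap of the 2 against 2 libraries was found for 2 members that were higher (12.7% of all genes) and 12 that were lower (13.3%). Of the 12, 8 were in the ATF6 arm, whose median log2 fold change was -0.35 with 2 of 11 members positive. Over all genes the median was 0.00, and 6815 of 13412 were positive. The IRE1-XBP1 and PERK-ATF4 medians were -0.03 and -0.05. Ern1 had 27.34 and 29.05 CPM fed and 26.73 and 28.96 fasted, and these overlapped (log2 fold change -0.02, SE 0.118).

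The fasting effect in AgRP was tested directly against that in POMC with an interaction term over all 17 libraries. By edgeR 1 member was higher in AgRP (0.141% of 13435 genes) and 0 lower (0.0223%), with 20 and 0 at an unadjusted p under 0.05 (5.63% of genes higher) and 9 and 0 by DESeq2 (0.93% higher). That member was Manf, with a difference of effects of 1.40 on the log2 scale (FDR 0.0355, SE 0.24), a call lost in 8 of the 11 fits that each left out 1 fed or fasted library (FDR 0.036 to 0.227). Hspa5 had a difference of 1.41 (FDR 0.054, SE 0.27), Hyou1 of 0.99 (FDR 0.078), Edem2 of 1.10 (FDR 0.0953), Pdia6 of 1.25 (FDR 0.0989) and Sdf2l1 of 1.26 (FDR 0.125). With the replicate number as a block, nested in line, 19 members were higher in AgRP, where 4.33% of all genes were. Of these, 8 were in the ATF6 arm, 7 in the IRE1-XBP1 arm, 1 in the PERK-ATF4 arm (Atf4) and 3 in no arm, and Hspa5 (1.39) and Manf (1.44) both had an FDR of 9.67e-06. The median difference was 0.99 for the ATF6 arm, 0.57 for IRE1-XBP1 and 0.03 for PERK-ATF4, against 0.00 over all genes. For the leptin effect, 0 members were higher (0.0447% of genes) and 0 lower (0.0372%) by edgeR, with 0 and 1 at an unadjusted p under 0.05 (1.73% of genes lower) and 0 and 0 by DESeq2. With the block 1 member was lower (0.424% of genes), namely Ern1, at -0.535 on the log2 scale (FDR 0.0107).

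Genes of the wider pathway were taken from lists of folding and oxidation, degradation and signalling genes. Of the 25 folding genes tested, 6 were called higher (2.82% of all genes) and 0 lower in fasted AgRP libraries, with a median log2 fold change of 0.25 against 0.02 over all genes. They included Fkbp11, an ER prolyl isomerase, at 3.394 ± 0.856 CPM fed and 10.36 ± 3.124 fasted (log2 fold change 1.61, FDR 0.0165), and the disulphide isomerase Pdia5 (0.95, FDR 0.0165). Fkbp11 fed libraries reached 3.954 CPM at most, and the lowest fasted library had 6.214. Of the 24 degradation genes tested edgeR called 0 (12 higher and 0 lower at an unadjusted p under 0.05, where 12.4% of all genes were higher, and 6 higher by FDR alone, where 3.81% were), with a median of 0.23. Of the 23 signalling genes tested, 4 were called higher, with a median of 0.18, among them the ER-anchored factor Creb3l2 (0.71, FDR 0.0165) and the eIF2alpha kinase Eif2ak2 (0.66, FDR 0.0266). After leptin, against fasted, 0 folding and 0 degradation genes were called, and 2 signalling genes were higher (1.19% of all genes). Atf3, a stress-responsive factor, rose from 8.421 ± 1.999 CPM in the 4 fasted to 43.98 ± 14.16 CPM in the 4 leptin libraries (log2 fold change 2.38, SE 0.264, FDR 0.000756). In POMC libraries Atf3 had 0.7621 to 1.564 CPM fasted and 4.854 to 8.37 CPM with leptin, which did not overlap (log2 fold change 2.48, SE 0.536, FDR 1, and FDR 0.00486 with the replicate block). The leptin effects on Atf3 in the lines differed by -0.10 on the log2 scale (SE 0.541). The other was Ptpn1, a phosphatase that restrains leptin signalling (0.52, FDR 0.00723). Against fed libraries 3 folding, 2 degradation and 4 signalling genes were higher after leptin (3.73% of all genes), and 0 were lower. The replicate block raised the folding count there to 5, and in fasted against fed it called Bbc3, a pro-apoptotic factor, lower. In leptin against fasted it called Creb3l2 lower (log2 fold change -0.51 and FDR 0.0917 without the block, FDR 0.000163 with it). In POMC libraries 0 genes of the 3 lists were called in any state comparison without the block, and Atf3 alone with it (0.0522% of all genes higher in leptin against fasted). The test of the fasting effect in AgRP minus POMC gave 0 calls without the block. With it 7 folding, 1 degradation and 4 signalling genes were higher in AgRP (4.33% of all genes) and 1 signalling gene, Crebrf, lower (1.89%). For the leptin effect the counts were 0 without the block and, with it, 1 signalling gene lower, Creb3l2. Fed AgRP libraries had less of Creb3l1, an ER-anchored factor, than fed POMC libraries (2.746 ± 0.3398 CPM, n = 3, against 7.134 and 7.508 CPM, log2 fold change -1.42, FDR 0.00129).

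Members with an ERSE in the searched window were all positive in the fasted AgRP comparison, and so were most without it. Of 8 tested members with an ERSE, 8 were positive and 2 called (Hspa5 and Pdia6), with a median log2 fold change of 0.50 (range 0.26 to 0.98). Of 20 tested members with a promoter but no ERSE, 16 were positive and 5 called, with a median of 0.39. Of the 28 other genes with an ERSE, 8 were tested, 4 positive and 1 called, with a median of 0.02. Over all genes tested, 7112 of 13401 were positive and 2.82% were called higher. These counts carry no test, because members were chosen as known targets of the response.

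No start site peak of a member was called between feeding states in AgRP nuclei. All 34 members had an ATAC peak within 1000 bases of an annotated start, 35 peaks in total, with library totals of 8263234 to 17190963. Between fasted and fed AgRP nuclei, 0 of these were called higher and 0 lower, with 0 and 5 at an unadjusted p under 0.05 and 0 and 1 by DESeq2. At that p 18% of the start site peaks of all genes were lower. Over all peaks 18.1% were higher and 8.88% lower, and over the start site peaks of all genes 2.18% and 3.78%. The member median was -0.21 on the log2 scale, against -0.22 for the start site peaks of all genes. The Hspa5 peak covers the window printed above, and had 84.22 and 96.75 CPM fed and 78.16 and 75.93 fasted. These did not overlap, with fasted lower, and the log2 fold change was -0.24 (FDR 0.177, SE 0.13). Edem2, whose RNA differed most, had 12.09 and 18.14 CPM fed and 19.59 and 21.02 fasted at its start, with both fasted values higher (log2 fold change 0.38, SE 0.245, FDR 0.252). Herpud1 had 108.3 and 106.4 CPM fed, 75.12 and 79.78 fasted and 71.82 and 62.65 with leptin. Its fasted and leptin peaks were below the fed ones, with a log2 fold change of -0.47 for fasting (FDR 0.00826, SE 0.124), under the fold minimum.

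Leptin against fasted gave 0 calls in either direction at member starts (edgeR, and likewise DESeq2, with 0 and 0 at an unadjusted p under 0.05). Over all peaks 2.41% were higher and 0.669% lower, and over start site peaks of all genes 0.255% and 0.0672%. The log2 fold changes of members ran from -0.26 (Ern1) to 0.28 (Atf6), with a median of -0.08. Between AgRP-positive and AgRP-negative nuclei of fed mice, 0 of the 37 member peaks were higher and 1 lower, with 0 and 11 at an unadjusted p under 0.05, where 32% of the start site peaks of all genes were lower, and 0 and 1 by DESeq2. Library totals there were 8685497 to 11177208. Over all peaks 23.9% were higher and 15.6% lower, and over start site peaks of all genes 2.96% and 13.4%. The lower peak was that of Atf4, with 46.31 and 46.09 CPM in AgRP-positive and 59.12 and 80.91 CPM in AgRP-negative nuclei. The groups did not overlap (log2 fold change -0.60, SE 0.13, FDR 2.75e-05), and the call was lost without AgRP-negative replicate 2. With the replicate block, since nuclei of both kinds came from shared pools, the Atf4 log2 fold change was -0.59 (FDR 3.93e-08, SE 0.1).

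**Figure D5:**
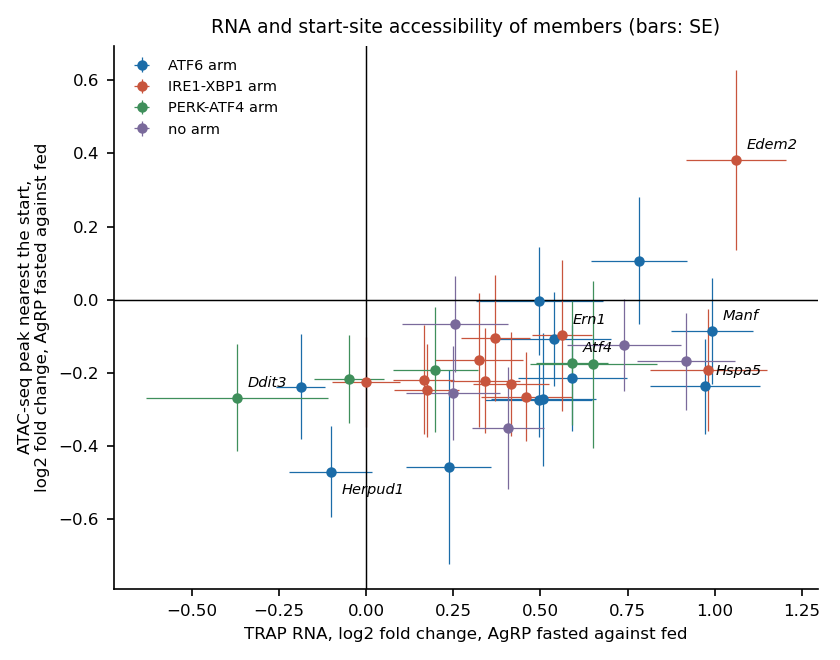
Log2 fold change of fasted against fed AgRP RNA (x axis) and of the ATAC peak nearest the start (y axis) for each tested member, with bars of 1 SE. Among members called in RNA, Edem2 (0.382) and Hyou1 (0.107) lie above 0 on the ATAC axis and Hspa5 (-0.237) and Pdia6 (-0.193) below it, and none of these peaks was called.

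IRF3 is a transcription factor of innate immune signalling. Its peaks in the single overexpression library were found within 1000 bases of the start of 23 of 34 members (67.6%), against 4293 of the 12244 tested protein-coding genes (35.1%). By arm the counts were 7 of 11 for ATF6, 8 of 12 for IRE1-XBP1, 3 of 6 for PERK-ATF4 and 5 of 5 for no arm. Among genes at or above the median CPM of the members, 12 of 16 members (75%) and 1427 of 3346 genes (42.6%) had such a peak. The 34 members include Derl3 and Trib3, which were not tested in RNA, whereas the comparison genes were all tested. All 34 also had an ATAC peak near a start, and the comparison genes were not limited to such genes. The 30387 peaks were read as mm10, the build named for the series, and come from 1 library. An IgG library of the same model is part of the series but was not analysed here, and the counts are a description.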

How the data were processed

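RNA counts per gene were deposited as the authors made them, with HISAT2 alignments to mm10 and featureCounts. The libraries were taken as unstranded, so reads of overlapping genes cannot be separated. They aligned ATAC reads with Bowtie2, called peaks with MACS2 and deposited raw counts per peak from BEDtools. The deposited IRF3 list holds SEACR peaks with their signal, of which only positions were used. Versions of these tools were not given in the sources used here. The authors' CPM tables and CTCF peak lists were not used.

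Counts were tested with edgeR 4.0.16 (limma 3.58.1, R 4.3.3) by the quasi-likelihood test after TMM scaling, keeping genes with a mean CPM of at least 1, within each line and, for comparisons between lines, over all 17 libraries. A gene was called at an FDR under 0.05 with an absolute log2 fold change over 0.5. DESeq2 1.42.0, DESeq2 size factors, library size alone, no filter, a replicate block, each library left out, start windows of 500 bases and others were alternatives. CPM and RPKM were computed from the counts with TMM-scaled library sizes and, for RPKM, the deposited lengths. Start sites came from GENCODE release M21, and promoters from RefSeq tables of GRCm38.p6. The scripts were tested on simulated data.

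Members called in fasted against fed AgRP libraries were given by library in that comparison, as were Atf6, Ern1, Eif2ak3, Xbp1, Atf4 and Ddit3. Other members and comparisons were given by library, range or fold change. By rule, up to 3 called genes were named per wider list and direction. Members, arms and lists were chosen with earlier results of these data known.

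Same-numbered AgRP libraries deviated together from their group means (r 0.588 to 0.852 in 10 pairs, against -0.691 to 0.696 in 30 other pairs), as did POMC libraries (0.778 to 0.81 in 6 pairs). They were taken as paired from this check, since the labels give the numbers and no shared batch. ATAC numbers of the feeding states did not pair (r -0.00861 to 0.193 in 6 pairs). AgRP-positive and AgRP-negative nuclei came from the same pools per the study's description (r 0.113 in 2 pairs). In the POMC and ATAC groups of 2 libraries, deviations from the mean mirror each other. Each r there is thus counted more than once, and the pairs are not separate checks.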

Additional observations from a re-analysis of the deposited data

Results flagged for a closer look

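Samples far from the others of their group were sought among members with 4 libraries per AgRP group by Dixon's ratio, where chance flags about 1 in 20 groups and 68 were examined. Edem1 in AgRP fasted replicate 4 stood at 22.7 CPM, with the other fasted libraries at 21.4 to 21.6 CPM (gap share 0.837). Derl2 in AgRP leptin replicate 1 stood at 56.0 CPM, with the other leptin libraries at 50.4 to 51.0 CPM (gap share 0.901). Neither gene was called in a comparison of states.

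The fasting effect on Manf differed between AgRP and POMC libraries by 1.40 on the log2 scale in the test of the difference itself, with fasted above fed in all AgRP libraries and below fed in both POMC libraries. As given above, that call was lost in most of the fits that left out 1 fed or fasted library.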

How the results depend on the processing

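Groups held 2 to 4 libraries and arms 5 to 11 tested genes, and 2 members were too low to test. Members called higher in fasted against fed AgRP libraries numbered 9, but 4 with library size alone and 7 to 11 with single libraries left out. Those higher in leptin against fed numbered 11, but 3 with library size alone and 5 to 14 with single libraries left out. For leptin against fasted, 1 was lower by FDR alone, an alternative chosen after seeing the data, as was leaving out the replicate 4 libraries. The fasting effect in AgRP minus POMC gave 1 member, but 9 by DESeq2, 0 with library size alone, 0 with no filter and 0 to 2 with single libraries left out. Start site peaks lower in fasted nuclei numbered 0, but 1 by DESeq2 and 0 to 1 with single libraries left out, and the 1 lower in AgRP-positive nuclei became 0 with library size alone and 0 to 1 with single libraries left out. The causes of these changes were not tested. No member value called in the main fit or in the alternative changed direction. Sign changes of members called in neither were not counted. The median fasting effect ranged over the alternatives from 0.426 to 0.586 for the ATF6 arm, 0.309 to 0.431 for IRE1-XBP1, 0.122 to 0.267 for PERK-ATF4 and 0.344 to 0.458 for no arm. Over all genes, the fasted against fed calls were 378 higher and 143 lower, 148 and 90 with library size alone and 590 and 340 with the block. With single libraries left out, 202 to 430 genes were higher. For leptin against fed 500 genes were higher, 194 with library size alone and 268 to 613 with single libraries left out.

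With the replicate block, 14 members were higher in fasted against fed AgRP libraries, 19 in the fasting effect of AgRP minus POMC, and 1 was lower in the leptin effect of AgRP minus POMC. Over 256 member values 24 gained a call under the block and 0 lost one. In all, of 4096 member values under alternatives 3991 kept their side of the threshold, 56 lost a call and 49 gained one. The block could not be fitted for AgRP against POMC fed, where numbers are nested in line.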
